A study of Mus musculus with 4 samples.

Results

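The mast cell lineage genes described here are 10 of the 53465 genes in the deposited table: *Kit*, *Il1rl1*, *Fcer1a*, *Ms4a2*, *Fcer1g*, *Cpa3*, *Cma1*, *Tpsb2*, *Hdc* and *Mitf*. They were picked by name as genes of mast cell identity when their FPKM (fragments per kilobase of exon, as scaled between libraries by the authors) in the same 4 libraries were already known, so the genes were chosen on these measured values. Their levels and differences are therefore given as a description, without a test. The same holds where both libraries of a group lay above or below those of the other group. How often this happened over all genes is not given here. A further 118 genes of the lineage, in 8 lists by function, were followed beside them. These lists were also chosen with earlier results of these data known.

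The libraries were Long RNA-seq of FGSCs, a line of female germline stem cells from mouse ovary. The cells of a group either carried a control shRNA (shNC) or targeted *Nat10* by shRNA (shNAT10), the gene of the enzyme that places the ac4C mark on RNA, with 2 libraries each. According to the methods, the shRNA came by lentivirus and infected cells were selected with puromycin or blasticidin S, so both groups had been through infection and selection. The paper calls the Long RNA-seq replicates biological, the labels do not say whether they were separate cultures, and p-values measure only the spread between these libraries. The call explained below was lost without shNAT10-1 (*Nat10* -1.07) and shNAT10-2 (*Nat10* -1.11).

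Fragments on genes, estimated from the FPKM with GENCODE M21 exon lengths, numbered 14902415 (shNC-1), 13029082 (shNC-2), 11057916 (shNAT10-1) and 13771478 (shNAT10-2). Loci where rRNA and similar repeat reads map took 48.5% (shNC-1), 38.6% (shNC-2), 27.0% (shNAT10-1) and 28.8% (shNAT10-2) of these fragments. This share was thus higher in both shNC libraries. *Nat10*, the target, was at 7.79 FPKM (shNC-1), 5.42 (shNC-2), 2.95 (shNAT10-1) and 3.04 (shNAT10-2), so both shNAT10 libraries were below both shNC libraries, as their labels say. In limma, a moderated test with Benjamini-Hochberg adjustment, its log2 fold change (log2FC, shNAT10 over shNC) was -1.09 with a standard error (SE) of 0.21 and an adjusted p = 0.123. Leaving out any of the libraries gave -1.35 to -0.83.

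Mast cells are tissue-resident cells of blood origin that store histamine and proteases in granules and release them when IgE bound to their surface is crosslinked by antigen. The high-affinity IgE receptor joins an IgE-binding alpha chain (*Fcer1a*), a signal-amplifying beta chain (*Ms4a2*) and a signalling gamma chain that other Fc receptors share (*Fcer1g*). Growth and survival depend on the receptor tyrosine kinase KIT, which germ cells and melanocytes also use, and the ovary, like most tissues, holds resident mast cells.

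The label of germline stem cells was compared with germline markers. The paper reports RT-PCR of *Oct4* (*Pou5f1*), *Ddx4*, *Fragilis* (*Ifitm3*) and *Blimp1* (*Prdm1*), and staining for DDX4 and OCT4, as characterization of its FGSCs. Of 15 such genes, *Dazl*, *Pou5f1*, *Dppa3*, *Tfap2c*, *Sall4* and *Mael* were listed at 0 in all 4 libraries, and *Ddx4* had 2 fragments in shNAT10-1 and 0 elsewhere. *Prdm1* stayed between 0.0702 and 0.0916 FPKM. The most abundant gene of the list was *Ifitm3*, at 9.29 FPKM (shNC-1), 22.2 (shNC-2), 27.1 (shNAT10-1) and 33.6 (shNAT10-2). *Ifitm3* is an interferon-induced membrane protein gene that many cell types express, so the list's level came mainly from a gene that is not restricted to the germline. In these libraries, most defining germline markers were thus at or near 0, while several mast cell genes were among the abundant mRNAs.

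**Figure D1:**
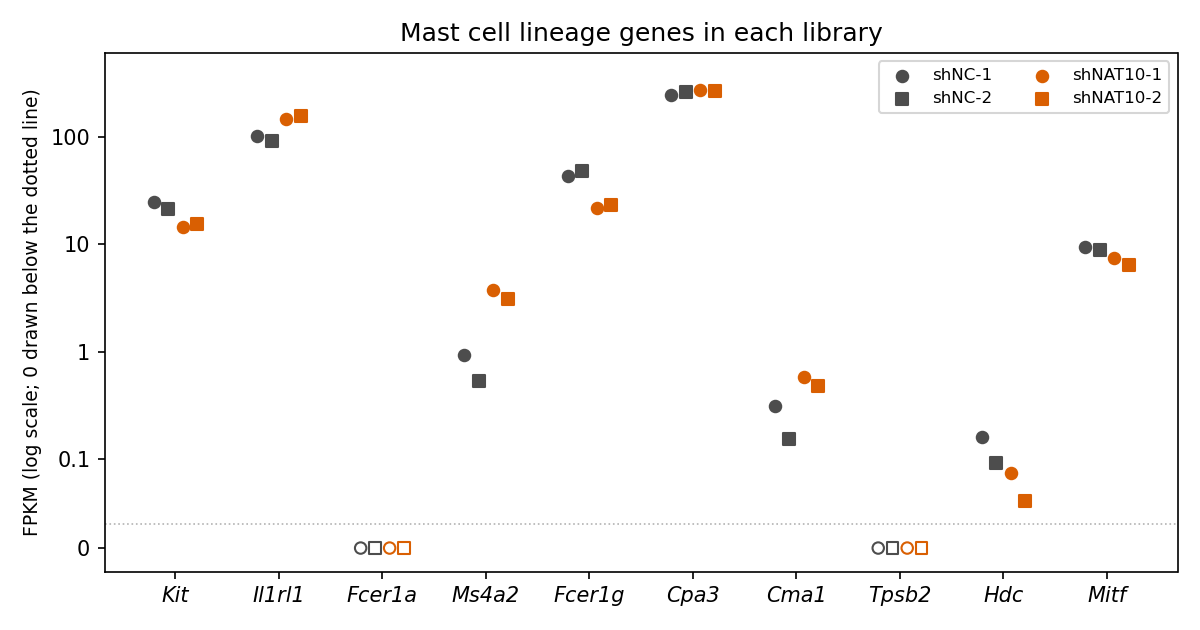
FPKM of the 10 mast cell lineage genes (log axis) in each of the 4 libraries, with shNC in grey, shNAT10 in orange, circles for replicate 1, squares for replicate 2, and open symbols below the dotted line for genes listed at 0. Levels ran from 245 to 272 FPKM for *Cpa3* down to 0 for *Fcer1a* and *Tpsb2*.

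Of the receptors, *Kit* encodes the receptor for stem cell factor and lies on chromosome 5 of GRCm38 from 75574916 to 75656722, on the plus strand. It was at 24.5 FPKM (shNC-1), 21.2 (shNC-2), 14.5 (shNAT10-1) and 15.6 (shNAT10-2). Both shNAT10 libraries were below both shNC libraries. The log2 difference, shNAT10 minus shNC on log2(FPKM + 0.1), was -0.60 (standard error 0.11) and stayed between -0.70 and -0.50 when any of the libraries was left out. In such bulk samples, fewer cells of a type and less RNA per cell cannot be told apart.

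*Il1rl1* encodes ST2, the receptor for interleukin 33, which mast cells display and which also exists as a soluble form from shorter transcripts. It lies on chromosome 1 from 40429570 to 40465415, on the plus strand, and was at 101 FPKM (shNC-1), 90.9 (shNC-2), 146 (shNAT10-1) and 155 (shNAT10-2). Both shNAT10 libraries were thus above both shNC libraries, opposite in direction to *Kit*. The log2 difference was 0.65 (standard error 0.10; 0.57 to 0.73 when a library was left out). GENCODE M21 lists 5 transcripts of the gene, and a value per gene does not separate the membrane form from the soluble form.

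The 3 chains of the IgE receptor differed in level and in direction. *Fcer1a*, the chain that binds IgE, lies on chromosome 1 from 173221284 to 173227214, on the minus strand, and was listed at 0 in all 4 libraries. At its exon length of 998 bases, the detection floor of 3 fragments equals 0.256 FPKM (shNC-1), 0.253 (shNC-2), 0.239 (shNAT10-1) and 0.196 (shNAT10-2), and it covers counting error only. The alpha chain mRNA was thus not detectable at this depth in either group.

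*Ms4a2*, the beta chain, lies on chromosome 19 from 11615523 to 11623719, on the minus strand. It was at 0.938 FPKM (shNC-1), 0.539 (shNC-2), 3.77 (shNAT10-1) and 3.13 (shNAT10-2), from 31, 18, 133 and 135 fragments. Both shNAT10 libraries were far above both shNC libraries, and among the mast cell lineage genes with a computed difference this one was the largest. The log2 difference was 2.12 (standard error 0.30; 1.77 to 2.47 when a library was left out), and 1.36 with a pseudocount of 1, which shrinks the differences of genes with low FPKM.

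*Fcer1g*, the gamma chain, lies on chromosome 1 from 171229572 to 171234365, on the minus strand. It was at 43.4 FPKM (shNC-1), 47.8 (shNC-2), 21.9 (shNAT10-1) and 23.4 (shNAT10-2). Both shNAT10 libraries were below both shNC libraries, with a log2 difference of -1.01 (standard error 0.09; -1.08 to -0.94 when a library was left out). The gamma chain also serves Fc receptors of macrophages, neutrophils and natural killer cells. The beta and gamma chains of the same receptor thus differed in opposite directions, and the gamma chain stayed the more abundant per length in every library.

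Among the granule proteases, *Cpa3* encodes carboxypeptidase A3, a main protein of mast cell granules. It lies on chromosome 3 from 20215620 to 20242181, on the minus strand, and was at 245 FPKM (shNC-1), 262 (shNC-2), 272 (shNAT10-1) and 267 (shNAT10-2). These levels ranked 104, 101, 108 and 105 among the 22040 protein-coding genes of the table. The shNAT10 libraries lay just above the shNC libraries, but the log2 difference of 0.09 (standard error 0.09) was no larger than its error and moved to 0.04 without shNC-1 and 0.14 without shNC-2.

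*Cma1* encodes mast cell chymase, a serine protease bound to heparin in the granule, and lies on chromosome 14 from 55941451 to 55944675, on the minus strand. It had 4 and 2 fragments in the control libraries and 8 in each shNAT10 library, which correspond to 0.312, 0.155, 0.585 and 0.479 FPKM. The shNAT10 values were above the shNC values, of which shNC-2 was under the floor of 3 fragments. The log2 difference of 0.96 had a standard error of 0.43 and moved to 0.61 without shNC-2 and to 0.31 with a pseudocount of 1, so at this depth it is loosely measured.

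*Tpsb2* encodes a tryptase, the other main class of mast cell serine protease. It lies on chromosome 17 from 25366305 to 25369098, on the plus strand, and was listed at 0 in all 4 libraries. Its floor of 3 fragments lay between 0.123 FPKM (shNAT10-2) and 0.160 FPKM (shNC-1). The neighbouring tryptase gene *Tpsab1* had 3 (shNC-1), 2 (shNC-2), 0 (shNAT10-1) and 0 (shNAT10-2) fragments. Tryptase mRNA was thus at or under the floor throughout, in contrast to *Cpa3*.

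*Hdc* encodes histidine decarboxylase, the enzyme that makes histamine, and lies on chromosome 2 from 126593667 to 126619299, on the minus strand. It was at 0.160 FPKM (shNC-1), 0.0923 (shNC-2), 0.0748 (shNAT10-1) and 0.0408 (shNAT10-2), from 12, 7, 6 and 4 fragments. Its mean was under 0.1 FPKM, the filter on low values, so no log2 difference was computed. *Slc18a2*, the vesicle transporter that loads histamine and other amines into granules, was at 18.3, 16.5, 16.5 and 16.2 FPKM in the same order. The transporter was therefore measured well above the enzyme per length, in every library.

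*Mitf* encodes a basic helix-loop-helix transcription factor that mast cells, melanocytes and osteoclasts need. It lies on chromosome 6 from 97807052 to 98021349, on the plus strand, and was at 9.37 FPKM (shNC-1), 8.81 (shNC-2), 7.41 (shNAT10-1) and 6.46 (shNAT10-2). Both shNAT10 libraries were below both shNC libraries, with a log2 difference of -0.39 (standard error 0.12; -0.48 to -0.29 when a library was left out). The 8 transcripts of *Mitf* in GENCODE M21 start at several promoters, and their forms are not separated here.

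Of the 10 genes, 8 were above 0 and 7 passed the filter of a mean of at least 0.1 FPKM. Those above 0 stood in the same order by FPKM in all 4 libraries, from *Cpa3* over *Il1rl1*, *Fcer1g*, *Kit*, *Mitf*, *Ms4a2* and *Cma1* to *Hdc*. *Cma1* and *Hdc* could not be ranked beyond their spread in the shNC group, since *Cma1* in shNC-2 (0.155 FPKM) was level with *Hdc* in shNC-1 (0.160 FPKM). Exons of the 10 genes shared no base with exons of another annotated gene, and 0 of their stretches of 150 bases occurred in a transcript of another gene. Their values were therefore not open to mixing through exact copies in the annotated transcripts, although the authors' counting was not examined beyond that.

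Promoter sequences of RefSeq (GRCm38.p6; 250 bases before to 50 after the transcript start) matched 9 of the 10 genes, with 13 promoters, and *Tpsb2* had no entry. They were searched on both strands for GATAA, the core bound by GATA factors, of which GATA2 is needed by mast cells, and for CATGTG and CACGTG, E-boxes that MITF can bind. GATAA or its reverse complement occurred in 8 of the 13 promoters, from 6 genes, against 25.4% of 32851 promoters in all. CATGTG occurred in 1 of the 13, that of *Fcer1a*, against 14.2% of all promoters, and CACGTG in 0 of the 13 against 7.15%. Promoters of the 93 matched genes of the 8 lists held GATAA in 27.5% of 120 sequences, near the share of all promoters. A match describes letters and no binding was measured here.

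The promoters of the 3 IgE receptor chains are shown because the beta and gamma chains differed in opposite directions and the alpha chain was at 0, with GATAA or its reverse complement TTATC in capitals and each written 5′ to 3′ on the gene's minus strand. They lie at chr1:173227180-173227479 for *Fcer1a*, chr19:11623670-11623969 for *Ms4a2* and chr1:171234300-171234599 for *Fcer1g*.
Fcer1a: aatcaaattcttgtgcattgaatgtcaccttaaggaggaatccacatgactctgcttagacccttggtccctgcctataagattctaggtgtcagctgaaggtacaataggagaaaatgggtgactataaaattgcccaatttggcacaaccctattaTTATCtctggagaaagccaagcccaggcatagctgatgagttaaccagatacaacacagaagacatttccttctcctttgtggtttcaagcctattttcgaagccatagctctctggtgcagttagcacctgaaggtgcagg
Ms4a2: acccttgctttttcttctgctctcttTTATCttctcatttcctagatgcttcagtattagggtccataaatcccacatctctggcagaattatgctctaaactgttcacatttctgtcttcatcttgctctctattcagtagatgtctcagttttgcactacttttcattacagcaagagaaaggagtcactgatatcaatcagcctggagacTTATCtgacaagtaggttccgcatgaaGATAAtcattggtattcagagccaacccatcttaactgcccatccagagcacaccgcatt
Fcer1g: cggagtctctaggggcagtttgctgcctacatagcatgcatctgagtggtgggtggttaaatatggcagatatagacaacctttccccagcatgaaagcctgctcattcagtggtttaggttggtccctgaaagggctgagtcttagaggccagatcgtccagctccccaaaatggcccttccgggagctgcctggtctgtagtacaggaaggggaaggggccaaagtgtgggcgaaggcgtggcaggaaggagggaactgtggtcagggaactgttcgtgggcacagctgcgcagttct
The *Ms4a2* promoter held 3 matches, that of *Fcer1a* 1 and that of *Fcer1g* 0.

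Other genes of the lineage were tested with limma on log2(FPKM + 0.1), two-sided, over 20116 genes with a mean of at least 0.1 FPKM, and called where the fold change exceeded 1.2 with p no higher than 0.05 before adjustment. Of 118 genes in the 8 lists, 102 were tested, of which 9 were called higher in shNAT10 (8.82%) and 22 lower (21.6%). Because the lists were chosen with earlier results of these data known, these shares describe the chosen genes and do not test the lineage. Over all genes tested, 8.41% were called higher and 7.83% lower. These shares over all genes are the background for the calls of every list given below. The median log2 fold change was -0.16 over the 102 genes and 0.01 over all genes tested, and 63 of the 102 were below 0. Among genes with a mean of at least 1 FPKM, 8 (8.70%) of 92 lineage genes were called higher and 22 (23.9%) lower, beside 10.9% and 11.1% of all 12138 genes.

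These counts depended on the libraries from which the spread was measured. In a fit without an shNAT10 library, the spread within a group came from shNC-1 and shNC-2 alone. Those differed more than the shNAT10 libraries (chi-square per degree of freedom 36.8 in shNC and 5.69 in shNAT10). The part of this spread in the lost calls was not tested. Leaving out shNAT10-1 or shNAT10-2 lowered the number of lineage genes called in both directions. It also lowered both numbers over all genes tested, as given in the closing section. Of the 31 called genes, 9 were called in all 4 fits with a library left out, namely *Ccl2* and *Cd34*, which were higher, and *Fyn*, *Stat5a*, *Stat5b*, *Tfe3*, *Il4*, *Il6* and *Il13*, which were lower. By limma with Benjamini-Hochberg adjustment, 2 of the 102 had an adjusted p under 0.05, beside 0.437% of all genes tested, and 32 had an unadjusted p under 0.05, beside 3330 of 20116 over all genes. On recovered fragments, limma-voom called 10 of the 102 higher and 32 lower, beside 2019 and 1875 over all genes it used. Those were the genes that passed the same filter and had an exon length in GENCODE M21. Of the 102, 21 had an adjusted p under 0.05 by limma-voom with Benjamini-Hochberg adjustment, beside 1582 over all genes it used. The number with an adjusted p under 0.05 thus depended on the tool.

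**Figure D2:**
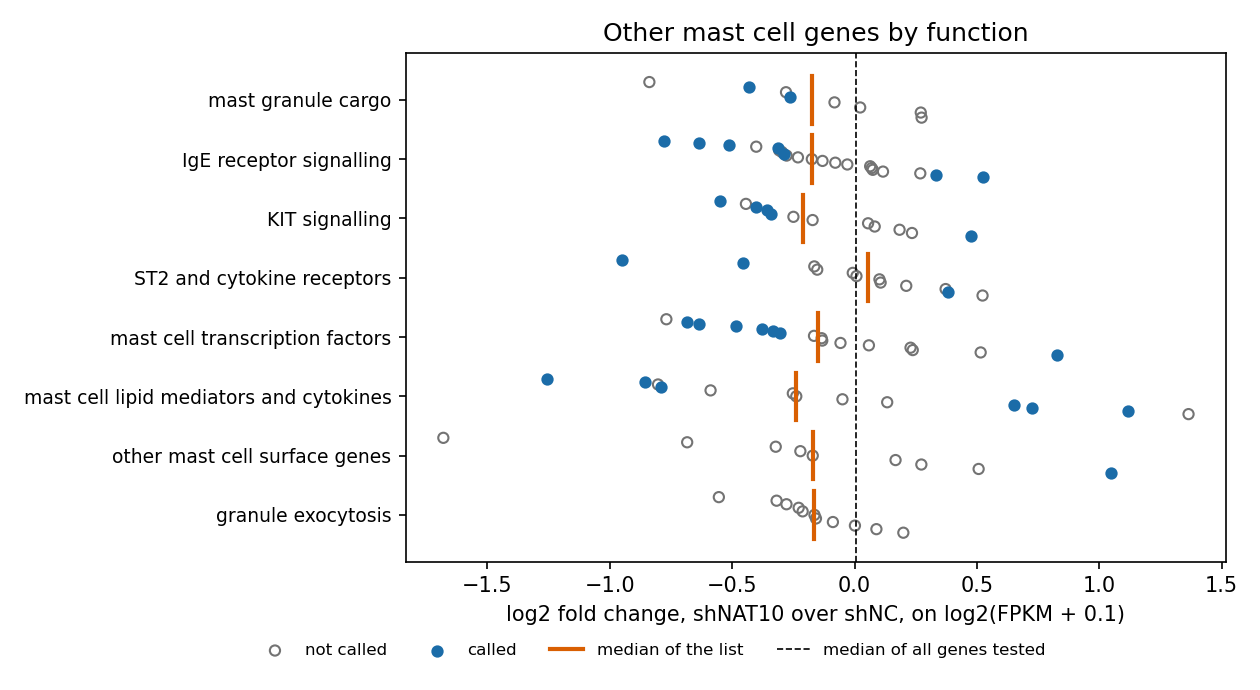
Log2 fold change (shNAT10 over shNC) of each tested gene in the 8 lists, with called genes filled, an orange bar at the median of each list and a dashed line at the median of all genes tested (0.01). Medians ran from -0.24 for lipid mediators and cytokines to 0.05 for ST2 and cytokine receptors.

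Granule cargo comprised proteases, the proteoglycan core and its enzymes, and 8 of its 14 genes were tested, of which 2 were called lower, with a median of -0.17. Leaving out shNC-1, shNC-2, shNAT10-1 and shNAT10-2 in turn gave 0, 2, 0 and 0 calls higher and 2, 0, 1 and 1 lower. *Srgn*, the serglycin core protein on which heparin is built, fell from 109 and 127 to 91.0 and 83.1 FPKM (log2FC -0.43, SE 0.11). The call did not hold without shNC-2 (*Srgn* -0.32), shNAT10-1 (*Srgn* -0.50) and shNAT10-2 (*Srgn* -0.37), with the log2FC then found in brackets. Calls were also lost for *Srgn* without the variance trend.

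The chymase locus on chromosome 14 showed how unevenly the proteases were represented. From *Cma1* at 55941451 to the end of *Gzmb* at 56262260, *Cma2*, *Mcpt1*, *Mcpt2*, *Mcpt4*, *Mcpt8* and *Mcpt9* had 1, 1, 15, 2, 57 and 0 fragments over the 4 libraries together. *Ctsg*, the gene of cathepsin G, was at 73.4 FPKM (shNC-1), 88.2 (shNC-2), 67.0 (shNAT10-1) and 65.4 (shNAT10-2). *Gzmb*, the gene of granzyme B, was at 23.4, 41.2, 36.9 and 38.1 FPKM. Among the genes of the locus read here, *Ctsg* and *Gzmb* were thus the abundant ones, and the chymases of the mast cell protease family were near 0. Limma called neither *Ctsg* nor *Gzmb*, while limma-voom called *Ctsg* lower. Of 150-base stretches of *Cma2*, 7.38% also occurred in *Mcpt9*, so low counts of these genes are uncertain.

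All 21 genes of IgE receptor signalling were tested, of which 2 were called higher and 5 lower, with a median of -0.17. With shNC-1, shNC-2, shNAT10-1 or shNAT10-2 left out in turn, the list held 0, 1, 0 and 0 calls higher and 3, 5, 2 and 3 lower. *Lat2*, an adaptor that the kinases of the receptor phosphorylate, was the most abundant and fell from 126 and 137 to 87.7 and 96.5 FPKM (log2FC -0.51, SE 0.10). *Fyn*, a Src-family kinase, fell from 6.24 and 5.58 to 3.21 and 3.60 FPKM (-0.78, SE 0.14). *Pik3cd*, the p110 delta subunit of PI3 kinase, fell from 81.4 and 70.4 to 46.6 and 50.9 FPKM (-0.64, SE 0.11). Losses of a call came without shNAT10-1 (*Lat2* -0.44, *Pik3cd* -0.57).

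The regulatory PI3 kinase subunit differed from the catalytic one. *Pik3r1* rose from 2.04 and 2.42 to 3.43 and 3.05 FPKM (log2FC 0.52, SE 0.17), and *Grb2*, an adaptor, was the other gene called higher (0.33, SE 0.11). The adaptor gene *Lcp2* (-0.29) was called lower. *Lat* was at 51.3 and 44.4 FPKM and then 36.5 and 42.5 FPKM and was called lower by limma-voom but not by limma, and the receptor-proximal kinase genes *Lyn* (-0.13) and *Syk* (0.07) were not called either. *Fyn* was called whichever library was left out. A call ended without shNC-1 (*Pik3r1* 0.41, *Grb2* 0.25, *Lcp2* -0.28), shNC-2 (*Grb2* 0.41, *Lcp2* -0.30), shNAT10-1 (*Pik3r1* 0.44, *Grb2* 0.41) and shNAT10-2 (*Pik3r1* 0.60, *Grb2* 0.25, *Lcp2* -0.19). Under other settings a call was lost for *Grb2* and *Lcp2* without the variance trend.

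Of 13 genes of KIT signalling, 12 were tested, 1 called higher and 4 lower, with a median of -0.21. In fits without shNC-1, shNC-2, shNAT10-1 or shNAT10-2, the list held 1, 0, 0 and 0 calls higher and 3, 5, 2 and 2 lower. *Stat5a* fell from 4.91 and 4.98 to 3.36 and 3.34 FPKM (log2FC -0.55, SE 0.12), and its neighbour *Stat5b* from at least 9.98 FPKM to at most 7.83 FPKM (-0.36, SE 0.10). These factors carry cytokine and KIT signals to the nucleus, and both were called in each fit with a library left out. *Jak2* (-0.34), a kinase that activates them, and *Socs1* (-0.40), a feedback inhibitor of it, were called lower as well. *Ptpn11*, the SHP2 phosphatase gene, rose from 12.1 and 8.85 to 14.5 and 14.3 FPKM (0.47, SE 0.17). *Kitl*, the ligand of KIT, was at 15.2 and 14.1 FPKM in control cells against 16.0 and 17.3 FPKM with shNAT10 and was not called. Calls were lost without shNC-1 (*Jak2* -0.26), shNC-2 (*Ptpn11* 0.25), shNAT10-1 (*Jak2* -0.38, *Socs1* -0.40, *Ptpn11* 0.47) and shNAT10-2 (*Jak2* -0.30, *Socs1* -0.41, *Ptpn11* 0.48). Calls were also lost for *Stat5b*, *Jak2*, *Socs1* and *Ptpn11* without the variance trend; *Ptpn11* with the same FPKM total outside rRNA-related loci.

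The 12 genes of ST2 and cytokine receptors held 1 call higher and 2 lower, with a median of 0.05. Leaving out shNC-1, shNC-2, shNAT10-1 and shNAT10-2 in turn gave 2, 1, 0 and 0 calls higher and 2, 1, 1 and 1 lower. *Il33*, the ligand of ST2, fell from 6.22 and 12.1 to 4.58 and 4.34 FPKM (log2FC -0.95, SE 0.33; -1.42 without shNC-1, -0.47 without shNC-2), while its receptor *Il1rl1* lay higher in shNAT10, as given above. *Traf6*, a ubiquitin ligase of this pathway, was called lower (-0.46). *Csf2rb*, the common beta chain of the receptors for interleukin 3 and GM-CSF, rose from 15.5 and 18.2 to 21.8 and 22.0 FPKM (0.38, SE 0.11). *Il1rap*, the co-receptor of ST2, had a log2 fold change of 0.52 (standard error 0.21) and was called higher by limma-voom but not by limma. *Il4ra*, the most abundant of the list, was at 35.0, 30.9, 29.3 and 29.4 FPKM, followed by *Csf2rb*, *Irak1* and *Il9r*, and *Il4ra*, *Irak1* and *Il9r* were not called. These calls did not hold without shNC-2 (*Traf6* -0.44), shNAT10-1 (*Il33* -0.99, *Csf2rb* 0.39) and shNAT10-2 (*Il33* -0.91, *Csf2rb* 0.38). Under other settings a call was lost for *Il33* and *Csf2rb* without the variance trend.

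Of 17 transcription factor genes, 16 were tested, 1 called higher and 6 lower, with a median of -0.15, and *Tfec* was listed at 0 in all 4 libraries. With shNC-1, shNC-2, shNAT10-1 or shNAT10-2 left out in turn, the list held 0, 0, 0 and 0 calls higher and 5, 5, 1 and 1 lower. *Gata2*, needed for mast cell development, was at 41.5 and 38.6 FPKM in control cells against 31.9 and 31.6 FPKM with shNAT10, with both shNAT10 libraries below both shNC libraries (log2FC -0.33, SE 0.08). *Gata1*, a related factor, was called higher (0.83, SE 0.30; 0.34 with a pseudocount of 1) on 70 fragments over all libraries. *Tfe3*, a relative of *Mitf*, fell from 3.09 and 3.10 to 2.00 and 1.79 FPKM (-0.68, SE 0.15). Losses of a call came without shNC-1 (*Gata1* 0.89), shNC-2 (*Gata1* 0.77), shNAT10-1 (*Gata2* -0.34, *Gata1* 0.78) and shNAT10-2 (*Gata2* -0.33, *Gata1* 0.87). Calls were also lost for *Gata2* without the variance trend; *Gata1* with a replicate block; *Gata1* with no filter on low values; *Gata1* in limma-voom.

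*Tfe3* and *Mitf* were thus both lower in shNAT10, while the further relative *Tfeb* (0.24) was not called. *Cebpb* (-0.31), the most abundant of these genes, *Lmo4* (-0.48), *Ikzf1* (-0.38) and *Bhlhe40* (-0.63) were called lower. *Spi1*, which encodes the myeloid factor PU.1, was at 4.71 and 6.41 FPKM in control cells against 4.14 and 6.03 FPKM with shNAT10, and its groups overlapped. A call ended without shNC-1 (*Cebpb* -0.23, *Ikzf1* -0.27), shNC-2 (*Bhlhe40* -0.42), shNAT10-1 (*Cebpb* -0.31, *Lmo4* -0.53, *Ikzf1* -0.42, *Bhlhe40* -0.56) and shNAT10-2 (*Cebpb* -0.30, *Lmo4* -0.44, *Ikzf1* -0.34, *Bhlhe40* -0.71). Under other settings a call was lost for *Cebpb*, *Lmo4*, *Ikzf1* and *Bhlhe40* without the variance trend; *Ikzf1* with the same FPKM total outside rRNA-related loci.

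Of 16 genes of lipid mediators and cytokines, 13 were tested, 3 called higher and 3 lower, with a median of -0.24. In fits without shNC-1, shNC-2, shNAT10-1 or shNAT10-2, the list held 2, 3, 2 and 1 calls higher and 6, 3, 3 and 3 lower. *Il13* fell from 3.96 and 3.36 to 1.32 and 1.62 FPKM (log2FC -1.26, SE 0.19), *Il4* from 19.1 and 21.2 to 12.5 and 10.8 FPKM (-0.79, SE 0.12) and *Il6* from 25.7 and 27.3 to 15.2 and 14.1 FPKM (-0.85, SE 0.09). These encode cytokines that activated mast cells secrete, and each was called in every fit with a library left out. *Il4* and *Il13* lie side by side on chromosome 11, at 53602982 to 53618669 and 53631324 to 53634702, and *Il5*, which follows at 53720794, was listed at 0 in all 4 libraries.

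*Ccl2*, a chemokine that attracts monocytes, rose from 55.1 and 59.1 to 129 and 119 FPKM (log2FC 1.12, SE 0.09; limma, Benjamini-Hochberg adjusted p = 0.0452), with both shNAT10 libraries above both shNC libraries. *Csf2* (0.65) on 122 fragments and *Ptgs1* (0.72), which encodes cyclooxygenase 1, were the others called higher. *Ptgs2*, the inducible cyclooxygenase gene, was at 54.0 and 59.9 FPKM in control cells against 48.7 and 47.8 FPKM with shNAT10, and *Pla2g4a* and *Alox5ap* were at means of 45.2 and 35.8 FPKM, all without a call. *Alox5*, which encodes 5-lipoxygenase, had 17 fragments in all, under the filter. Calls were lost without shNC-1 (*Csf2* 0.59), shNC-2 (*Csf2* 0.71), shNAT10-1 (*Ptgs1* 0.73) and shNAT10-2 (*Csf2* 0.55, *Ptgs1* 0.71). Calls were also lost for *Csf2* in limma-voom.

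Of 13 other surface genes, 9 were tested and 1 was called, with a median of -0.17. Leaving out shNC-1, shNC-2, shNAT10-1 and shNAT10-2 in turn gave 2, 1, 1 and 1 calls higher and 2, 1, 1 and 1 lower. *Cd34*, a sialomucin gene of progenitors and mast cells, rose from 14.0 and 13.4 to 27.0 and 29.8 FPKM (log2FC 1.05, SE 0.10; limma, Benjamini-Hochberg adjusted p = 0.0489). *Cd63*, a granule membrane protein gene, was the most abundant, at 63.6, 80.1, 62.6 and 64.2 FPKM, and was not called. *Mrgprb1*, *Mrgprb2* and *Rgs13* were listed at 0 in all 4 libraries. *Mrgprb2* encodes a receptor for basic secretagogues that is typical of connective tissue mast cells.

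Of 12 granule exocytosis genes, 11 were tested, and limma called 0, with 1 gene (*Stx4a*, log2 fold change -0.23) at an unadjusted p under 0.05, while limma-voom called 2 lower, *Rab27a* and *Rab27b*. The median was -0.16. Without shNC-1 the list held 1 call higher and 3 lower, and 0 without any other library. *Vamp8*, a vesicle fusion protein gene, was at 37.2, 39.3, 42.1 and 39.4 FPKM, the highest of the list, and *Rab27b*, which docks granules, at 26.6, 31.2, 24.2 and 23.3 FPKM.

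**Figure D3:**
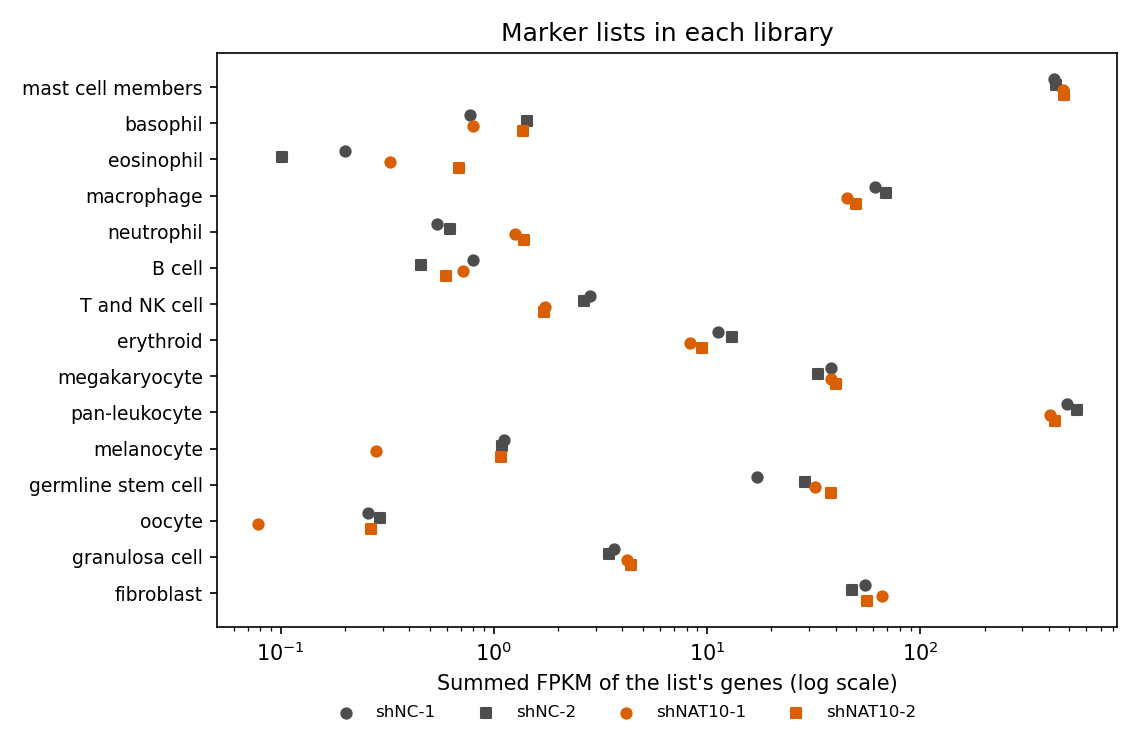
Summed FPKM (log axis) of the mast cell lineage genes and of 14 lists of markers of other cell types in each of the 4 libraries, with shNC in grey, shNAT10 in orange, circles for replicate 1 and squares for replicate 2. Mast cell and pan-leukocyte genes were the most abundant, with sums of 425 FPKM (mast cell genes, shNC-1) to 540 FPKM (pan-leukocyte genes, shNC-2) in the shNC libraries.

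Markers of other cell types were read beside these genes, with shNC-1 and shNC-2 given before shNAT10-1 and shNAT10-2. The 10 mast cell lineage genes summed to 425, 432, 466 and 471 FPKM, of which *Cpa3* made up most. All 11 pan-leukocyte genes were detected and summed to 489, 540, 407 and 429 FPKM, led by *Cd53* at a mean of 154 FPKM. Leukocyte genes were thus about as abundant in sum as the mast cell genes, and lower in sum in both shNAT10 libraries. Of the 11, *Cd53* (log2FC -0.58), *Lcp1* (-0.37), *Itgb2* (-0.51), *Laptm5* (-0.64) and *Cd52* (-1.09, or -0.56 with a pseudocount of 1) were called lower and *Spn* (0.34) higher, while *Ptprc*, which encodes CD45, stood between 15.3 and 15.5 FPKM in every library and was not called. With shNC-1, shNC-2, shNAT10-1 or shNAT10-2 left out in turn, the list held 1, 0, 0 and 0 calls higher and 4, 4, 1 and 2 lower. With all libraries, 45.5% of the 11 were called lower and 9.09% higher, beside 7.83% and 8.41% of all genes tested. The part of leukocyte content in the differences of the mast cell genes was not tested. These calls did not hold without shNC-1 (*Laptm5* -0.34), shNC-2 (*Cd52* -0.64, *Spn* 0.27), shNAT10-1 (*Cd53* -0.55, *Lcp1* -0.32, *Laptm5* -0.51, *Cd52* -1.29, *Spn* 0.35) and shNAT10-2 (*Itgb2* -0.45, *Laptm5* -0.76, *Cd52* -0.90, *Spn* 0.32). Under other settings a call was lost for *Lcp1*, *Laptm5*, *Cd52* and *Spn* without the variance trend; *Laptm5*, *Cd52* and *Spn* with a replicate block; *Laptm5* and *Cd52* with no filter on low values; *Cd52* with a pseudocount of 1; *Laptm5* and *Spn* with the same FPKM total outside rRNA-related loci.

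Granulocyte lists were near 0. The 2 basophil genes summed to 0.768, 1.43, 0.798 and 1.37 FPKM, all from *Mcpt8*, with *Prss34* at 0. The 8 eosinophil genes summed to 0.200, 0.101, 0.324 and 0.681 FPKM, led by *Siglecf* (0.214 in the mean), with *Prg2*, *Prg3*, *Ear1*, *Ear2* and *Ccr3* at 0. The 10 neutrophil genes summed to 0.540, 0.621, 1.26 and 1.38 FPKM, led by *S100a8* (0.622 in the mean, called higher on 23 fragments, but not by limma-voom), with *S100a9*, *Ltf* and *Csf3r* at 0. Defining genes of basophils, eosinophils and neutrophils were thus at or near 0. Losses of a call came without shNC-2 (*S100a8* 1.15), shNAT10-1 (*S100a8* 1.24) and shNAT10-2 (*S100a8* 1.5).

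Macrophage genes were mixed. The 10 summed to 61.4, 68.7, 45.2 and 50.1 FPKM, led by *Adgre1* (41.1 in the mean), with *C1qa*, *C1qb*, *C1qc* and *Marco* at 0 and *Csf1r* at 0.819, 1.36, 1.11 and 1.44 FPKM. *Adgre1* (log2FC -0.37) and *Fcgr1* (-0.85), whose product signals through the gamma chain of *Fcer1g*, were called lower. The sum was thus lower in both shNAT10 libraries, as was *Fcer1g*, while the complement genes typical of tissue macrophages were not detected, and the part of such cells in the difference of *Fcer1g* was not tested. A call ended without shNC-1 (*Adgre1* -0.42), shNC-2 (*Adgre1* -0.32) and shNAT10-1 (*Adgre1* -0.26). Calls were also lost for *Adgre1* without the variance trend.

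Lymphoid and other blood lists followed. The 6 B cell genes summed to 0.801, 0.452, 0.719 and 0.598 FPKM, led by *Ebf1* (0.460 in the mean), with *Cd79b* and *Ms4a1* at 0. The 10 T and NK cell genes summed to 2.81, 2.65, 1.74 and 1.72 FPKM, led by *Lck* (1.01 in the mean), with *Cd3e*, *Cd3g* and *Ncr1* at 0. Lymphocyte markers were thus near 0. The 9 erythroid genes summed to 11.3, 13.0, 8.26 and 9.46 FPKM, led by *Epor* (9.29 in the mean, called lower at -0.46), with *Hba-a2*, *Hbb-bs*, *Hbb-bt* and *Slc4a1* at 0. The 8 megakaryocyte genes summed to 38.1, 33.1, 38.3 and 40.2 FPKM, led by *Itga2b* (32.3 in the mean), with *Pf4* called higher (1.87 on 71 fragments, 1.16 with a pseudocount of 1). Of these lists, globin genes were at or near 0, and *Itga2b*, an integrin gene of megakaryocytes that blood progenitors also express, was the abundant gene. Calls were lost without shNAT10-1 (*Epor* -0.41, *Pf4* 1.93) and shNAT10-2 (*Epor* -0.51, *Pf4* 1.82).

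Cells that also use *Kit* or *Mitf*, and other cells of the ovary, were read the same way. The 6 melanocyte genes summed to 1.11, 1.09, 0.278 and 1.08 FPKM, led by *Pmel* (0.848 in the mean), with *Dct*, *Tyr* and *Tyrp1* at 0. The 15 germline stem cell genes summed to 17.1, 28.9, 31.9 and 38.3 FPKM, led by *Ifitm3*. *Etv5* of this list was at 6.95, 5.89, 3.57 and 3.47 FPKM. It was called lower (log2FC -0.84, and -0.96 to -0.73 when a library was left out). *Ifitm3* (log2FC 1.06, 0.44 to 1.69 when a library was left out) was called higher by limma-voom but not by limma. The 8 oocyte genes summed to 0.255, 0.292, 0.0785 and 0.266 FPKM, led by *Gdf9* (0.129 in the mean), with *Zp2*, *Zp3*, *Bmp15* and *Figla* at 0. Apart from *Ifitm3* and *Etv5*, the listed genes of pigment cells, germline stem cells and oocytes were thus far below *Kit* and *Mitf* in level. *Ifitm3* was above *Kit* in every library but shNC-1. The part of these lists in the differences was not tested.

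The 8 granulosa cell genes summed to 3.67, 3.45, 4.18 and 4.40 FPKM, led by *Inhba* (2.90 in the mean), with *Foxl2* and *Fshr* at 0. The 10 fibroblast genes summed to 55.0, 47.8, 65.8 and 56.2 FPKM, led by *Dcn* (40.0 in the mean), with *Lum* at 0 and *Col3a1* (log2FC 0.98, or 0.52 with a pseudocount of 1), *Pdgfra* (0.83) and *Thy1* (0.76) called higher. Collagen genes were low, with *Col1a1* between 0.480 and 0.667 FPKM. Of the 9 fibroblast genes tested, 33.3% were thus called higher and 0 lower, beside 8.41% and 7.83% of all genes tested. *Dcn*, the most abundant, was not called. The part of fibroblast genes in the differences of the mast cell genes was not tested. These calls did not hold without shNC-1 (*Col3a1* 1.08), shNC-2 (*Col3a1* 0.87), shNAT10-1 (*Pdgfra* 0.79) and shNAT10-2 (*Col3a1* 0.80, *Pdgfra* 0.88).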

How the data were processed

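The unit throughout is FPKM as the authors deposited it, in 4 libraries (2 shNC, 2 shNAT10) on GRCm38. The submitters' notes name cutadapt, HISAT2 and DESeq2; the counting program and its strand setting are not given in the sources used here. The labels describe mRNA isolation with Oligotex and a directional NEBNext kit, whereas the methods describe rRNA depletion and a Long RNA-seq kit. The deposited table also holds the authors' own log2 fold changes, p-values and adjusted p-values between the groups, which were not used.

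log2(FPKM + 0.1) was fitted with limma 3.58.1 (R 4.3.3; trend, two-sided) for 20116 genes with a mean of at least 0.1 FPKM. Called genes exceed a fold change of 1.2 with p no higher than 0.05 before adjustment; 1691 genes were called higher, 1576 lower, and 88 had an adjusted p under 0.05 by limma with Benjamini-Hochberg adjustment. Fragments were recovered from FPKM and GENCODE M21 exon lengths. Of values under 50 fragments, 96.0% to 96.6% came out whole, at a tolerance of 0.02. Whether the authors used M21 is not given, so fragment numbers and floors are estimates. On these, limma-voom called 2019 higher and 1875 lower, with 1582 at an adjusted p under 0.05 (limma-voom with Benjamini-Hochberg adjustment). The divisors behind the FPKM (in the ratio of 11.7, 11.9, 12.6 and 15.3, shNC before shNAT10) were not proportional to fragments on genes, so the authors' scaling was not by that total. At 1 kilobase, 3 fragments correspond to 0.255, 0.253, 0.239 and 0.196 FPKM. Levels, sequences and figures came from Python 3.11.15 (pandas 2.3.3, scipy 1.17.1, numpy 2.4.6, matplotlib 3.10.9).

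The mast cell lineage genes and the gene lists were chosen with earlier results of these data known. By rule, the text names up to 4 genes of each list with the highest mean FPKM, up to 4 called genes with the largest log2 fold change in either direction, and genes at 0 in all libraries. Further genes of the lists, such as *Slc18a2*, *Lyn*, *Syk*, *Il1rap*, *Tfeb*, *Spi1* and *Ptprc*, were named for their role or as further calls of a list, after their values were known. Some called genes are not reported here by name. Alternatives were pseudocounts of 1 and 0.01, no filter and a filter at 1 FPKM, 2 rescalings (median ratio; same total without rRNA-related loci), no trend, a replicate block, each library left out, and limma-voom.

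Limits: with 2 libraries per group, replicates differed beyond sampling noise (chi-square per degree of freedom 36.8 in shNC and 5.69 in shNAT10). The floor of 3 fragments covers counting error only, since PCR copies were not known. Gene-level FPKM does not separate isoforms. Levels of mRNA do not measure protein, ac4C or the number of mast cells.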

Additional observations from a re-analysis of the deposited data

How the results depend on the processing

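With each library left out in turn, genes called higher numbered 1108 to 1734 (1691 with all libraries; 1108 without shNAT10 replicate 1) and genes called lower 899 to 1659 (1576 with all libraries; 899 and 1007 without a shNAT10 library). In the 8 lists, calls numbered 2 to 8 higher (9 with all libraries; 3 without shNAT10 replicate 1 and 2 without replicate 2) and 11 to 26 lower (22 with all libraries; 11 and 12 without these libraries). Without the trend, 12 genes of the lists were called lower, and 21 of 44 calls followed across settings were lost, among them *Srgn*, *Lcp2*, *Grb2*, *Stat5b*, *Jak2*, *Ptpn11*, *Socs1*, *Il33*, *Csf2rb*, *Gata2*, *Lmo4*, *Cebpb*, *Ikzf1*, *Bhlhe40*, *Adgre1*, *Laptm5*, *Cd52*, *Lcp1* and *Spn*.

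With a pseudocount of 1, the log2 difference of *Ms4a2* was 1.36 (2.12 with 0.1) and that of *Cma1* 0.31 (0.96 with 0.1). The log2 fold changes of *Gata1* (0.34 from 0.83), *Pf4* (1.16 from 1.87), *Cd52* (-0.56 from -1.09) and *Col3a1* (0.52 from 0.98) also moved by over 1.5 times. A filter at a mean of 1 FPKM kept 6 of the 10 mast cell lineage genes. No log2 difference of these genes changed direction under any setting, and none of the 44 followed calls did. Genes that were not called could change direction, such as *Syk* (0.07, and -0.08 without shNAT10 replicate 2) and *Gzmb* (0.27, and -0.13 without shNC replicate 1). The median over all genes tested was 0.01, and -0.01 with the filter at 1 FPKM.

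With a replicate block, 1587 genes were called higher and 1527 lower, and 8 and 22 in the lists, and the calls of *Gata1*, *Laptm5*, *Cd52* and *Spn* were lost; the correlation of replicate numbers across groups was 0.0071, and the labels' numbers do not say that libraries were paired. Scaled to the same FPKM total without rRNA-related loci, 1618 genes were called higher and 1485 lower, and 8 and 22 in the lists. This scaling ended the calls of *Ptpn11*, *Ikzf1*, *Laptm5* and *Spn*, no filter those of *Gata1*, *Laptm5* and *Cd52*, a pseudocount of 1 that of *Cd52*, and limma-voom those of *Gata1* and *Csf2*. Median-ratio rescaling left the counts at 1691 and 1576.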
